A study of Homo sapiens with 18 samples.

Results

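Transcript levels of 10 immediate early genes were followed in PC3, an established line of human prostate cancer cells, after depletion of an Elongin subunit or exposure to a BC-box peptide. The 10 genes were EGR1, EGR2, EGR3, IER2, IER3, IER5, KLF4, KLF6, KLF10 and SRF. They were taken by symbol from the 20365 genes of the deposited tables, and all 10 symbols were found. Each of 6 groups had 3 RNA-seq libraries, 18 in all. The knockdown experiment used lentiviral vectors with a short hairpin RNA: the EloB KD cells carried a hairpin against Elongin B, the EloC KD cells a hairpin against Elongin C and the Control KD cells a control. They were kept in RPMI with 10% FCS. In the peptide experiment cells in 2.5% FCS were exposed for 24 h to 12500 nM of the WT BC-box peptide, the Mutant peptide or the Scrambled peptide. All groups share the PC3 background. The hairpin sequences, the number of hairpins per gene and any selection of clones are not given in the sources used here. Elongin B and Elongin C form the dimer that BC-box proteins bind, and the dimer serves both Elongin A, an elongation factor of RNA polymerase II, and cullin ubiquitin ligases.

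Immediate early genes are transcribed within minutes of a growth factor, serum or stress signal, from factors already present in the cell. In the best known route, ERK phosphorylates ternary complex factors of the ELK family, which sit with serum response factor (SRF) on a promoter element called the CArG box, and SRF also works with the actin-regulated coactivators MRTFA and MRTFB. EGR1, EGR2 and EGR3 are zinc finger transcription factors induced in this way and held back by the corepressors NAB1 and NAB2. IER2, IER3 and IER5 were named for the same early kinetics: IER3 acts in cell survival and ERK signalling, and IER5 promotes the dephosphorylation of the heat shock factor HSF1. The Krüppel-like factors bind GC-rich promoters. KLF4 acts in epithelial differentiation and pluripotency, KLF6 has been studied as a tumour suppressor in the prostate, and KLF10 was found as a gene induced by TGF-beta. EGR1 is known for high expression in many prostate tumours.

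The CArG box is the element on which SRF sits, so the promoter stretches of the members found to hold it are shown. Promoter windows of 300 bases (250 before to 50 after the start site) were in the RefSeq table (GRCh38.p14) for EGR1, EGR2, IER2, IER5, KLF4, KLF6 and SRF, 7 of the 10. Capitals mark the CArG boxes, and each stretch is written on the gene's own strand. The EGR1 stretch is chr5:138465349-138465428 on the plus strand, the EGR2 stretch chr10:62816397-62816476 on the minus strand and the SRF stretch chr6:43171189-43171268 on the plus strand. None of the 3 overlaps an annotated exon.
EGR1: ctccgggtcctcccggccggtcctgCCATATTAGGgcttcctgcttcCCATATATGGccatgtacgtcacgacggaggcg
EGR2: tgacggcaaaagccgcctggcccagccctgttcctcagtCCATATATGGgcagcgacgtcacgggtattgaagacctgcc
SRF: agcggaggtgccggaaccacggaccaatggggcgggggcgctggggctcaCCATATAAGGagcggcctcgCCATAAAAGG

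EGR1 and SRF each hold 2 CArG boxes. Their first bases lie at -105 and -83 from the EGR1 start and at -30 and -10 from the SRF start. EGR2 holds 1, at -71 from the start at 62816366, and IER2, IER5, KLF4 and KLF6 have none in their windows. Of all 27305 genes with a window, 1.60% have a CArG box in such a window. The EGR binding site was searched on both strands as GCGNGGGCG and occurs in the windows of EGR1, EGR2, KLF4, KLF6 and SRF, 5 of the 7, against 11.2% of all genes. In EGR2 it lies in the window of another start, at 62818775, and not in the window that holds the CArG box. The core of the cAMP response element, TGACG, also occurs in 5 of the 7 (EGR1, EGR2, IER2, KLF4 and SRF), against 28.4% of all genes. The full element TGACGTCA and the AP-1 site TGANTCA occur in none of the 7 (2.25% and 9.37% of all genes). The letters of the TATA box, TATAAA, occur in SRF only among the 7, where 14.0% of all genes have them on either strand. In SRF they lie after the start, at 15, and on the strand opposite to the gene. TGACG is part of TGACGTCA, and no CArG box in these windows shares bases with another match. A match describes letters, not a bound site.

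The knockdown libraries held 40.3 to 57.2 M counted reads and the peptide libraries 31.7 to 34.7 M. ELOB had normalised counts of 478.3 to 596.3 in EloB KD, against 2626 to 4950 in Control KD, and ELOC had 491.8 to 557.9 in EloC KD, against 4097 to 4797 in Control KD. The epithelial keratins KRT8 and KRT18 were read in every library (at least 1981 and 2547 normalised counts). Leukocyte markers summed to at most 14.4 in any library. Summed endothelial markers were 2032 to 2256 in EloB KD, 1251 to 1420 in EloC KD and 1298 to 1849 in Control KD, and 690.6 to 772.1 with the WT peptide, 853.4 to 1005 with the Mutant peptide and 912.0 to 1163 with the Scrambled peptide. PECAM1 made up nearly all of that sum, and CDH5 and VWF had at most 24.6 and 10.2 in any library. Summed fibroblast markers were 705.0 to 1089 in EloB KD, 2021 to 2549 in EloC KD and 613.8 to 774.3 in Control KD, most of them from COL1A1. Summed epithelial and prostate markers were 18483 to 21702 in EloB KD, 11345 to 15376 in EloC KD and 28641 to 32312 in Control KD. HOXB13 weighed heavily in that sum, with 5317 to 21752 over the knockdown libraries. There KRT8 had 1981 to 4182, KRT18 2547 to 6323 and EPCAM 365.5 to 1945. These sums differ between groups, and their part in the results that follow was not tested. The labels do not say that replicates were separate cultures, so the errors and p-values speak of the spread among these libraries, which may be technical.

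The 10 genes fell into 2 ranges of abundance. Per kilobase (kb) of exon and M counted reads, IER2 and KLF10 were the most abundant in every group, and EGR1 and EGR3 had the lowest means. In EloB KD, IER2 averaged 43.5 ± 5.38, in EloC KD 57.8 ± 6.99 and in Control KD 38.0 ± 4.38 reads per kb per M (SD, n = 3 each). KLF10 averaged 35.2 ± 4.83 in EloB KD, 29.3 ± 3.59 in EloC KD and 36.9 ± 1.82 in Control KD. The IER2 and KLF10 libraries overlapped in EloB KD and in Control KD, and did not in EloC KD or in the 3 peptide groups. KLF4 and KLF6 followed with means of 15.5 to 30.9 over the 6 groups. They overlapped each other in EloB KD, Control KD and the Mutant peptide, and KLF4 stood above KLF6 in EloC KD and below it in the WT and Scrambled peptide groups. SRF averaged 12.3 to 17.4 and IER5 5.69 to 10.2, without overlap between SRF and IER5 in any group. EGR2 was lower by a wide step, with means of 0.390 to 1.69. Other neighbours in the order overlapped in some groups: KLF4 and SRF in EloB KD, KLF10 and KLF4 in EloC KD, and IER3 and EGR2 in the Mutant and Scrambled peptide groups.

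EGR1 and EGR3 in every group, and IER3 in the knockdown groups, were close to the limit of detection on this per-length scale. IER3 averaged 0.0740 to 0.176 in the knockdown groups and 0.643 to 0.791 in the peptide groups. EGR1 averaged 0.0377 to 0.163 over the 6 groups and EGR3 0.0351 to 0.0630. Neighbours among these 3 overlapped in every knockdown group, and EGR1 and EGR3 also with the WT and Mutant peptides. With the Scrambled peptide EGR1 stood above EGR3. The 2 experiments differ in serum, vector and normalisation, and levels are set side by side across them as a description only.

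**Figure D1:**
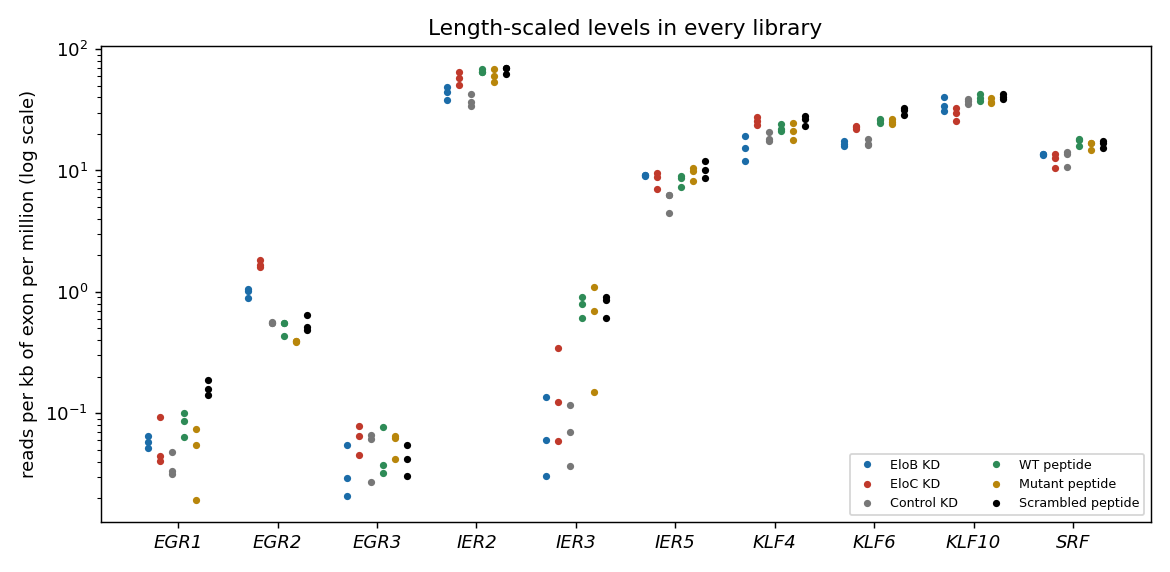
Length-scaled levels of the 10 genes in every library, in reads per kb of exon per M counted reads on a log axis. Points are libraries and colours are the 6 groups. IER2 and KLF10 lie highest (group means up to 67.6 and 40.9), while EGR1 and EGR3 have no group mean above 0.163.

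Gene models for these levels came from the GENCODE annotation of GRCh38. EGR1 lies on chromosome 5 (138465490 to 138469315, plus strand, 3138 exon bases), EGR2 on chromosome 10 (62811996 to 62919900, minus strand, 3689 exon bases) and EGR3 on chromosome 8 (22687659 to 22693302, minus strand, 4855 exon bases). IER2 lies on chromosome 19 (13150415 to 13154908, plus strand), IER3 on chromosome 6 (30743199 to 30744554, minus strand) and IER5 on chromosome 1 (181088712 to 181092899, plus strand). KLF4 lies on chromosome 9 (107484852 to 107490482, minus strand), KLF6 on chromosome 10 (3775996 to 3785281, minus strand) and KLF10 on chromosome 8 (102648779 to 102655902, minus strand). SRF lies on chromosome 6 (43171299 to 43181507, plus strand). Exons of a gene on the opposite strand cover 30.8% of the IER2 exon bases (AC011446.2), 26.5% of those of IER3 (IER3-AS1) and 3.38% of those of EGR3 (AC055854.1). The library kit keeps strand, but whether the counting used it is not given in the sources used here, so reads of these pairs may be mixed.

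**Figure D2:**
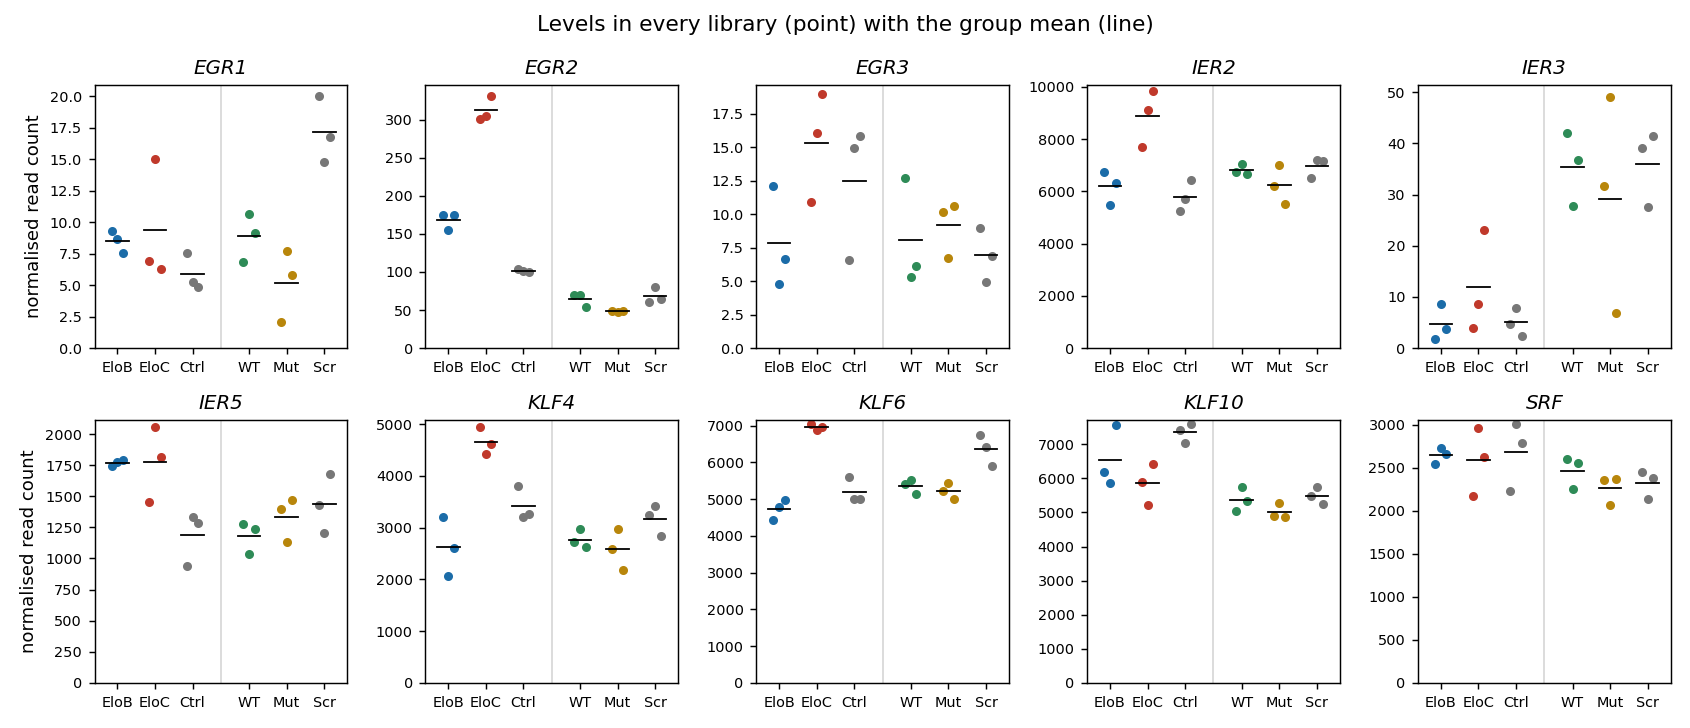
Normalised read counts of the 10 genes in every library. Points are libraries, lines are group means, and each panel has its own linear axis from 0, with the knockdown groups (EloB, EloC, Ctrl) left of the grey line and the peptide groups (WT, Mut, Scr) right of it. The 3 EloC KD libraries of EGR2 (300.8 to 331.6) lie above all other libraries, and the 3 Scrambled peptide libraries of EGR1 (14.8 to 20.01) above the other peptide libraries.

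Knockdown of Elongin C moved most of the tested members, and knockdown of Elongin B moved EGR2 and IER5. In EloC KD, 6 of 8 tested members were called, at an adjusted p under 0.05 in limma: EGR2, IER2, IER5, KLF4 and KLF6 rose and KLF10 fell. Of all 13764 genes tested in that comparison 42.5% were called, 21.3% higher and 21.2% lower. The median log2 fold change of the 8 was 0.43, against 0.01 over all genes. In EloB KD, EGR2 and IER5 were higher, 2 of the 8, where 20.5% of all genes were called, 9.34% higher and 11.2% lower. The median of the 8 was -0.07, against 0.004 over all genes, and the share called among the 8 was near that background. This fit leaves out the replicate number. With that number as a block, 3 of the 8 were called in EloB KD, where 36.3% of all genes were called. In EloC KD 6 were, where 57% of all genes were called. EGR1 and IER3 averaged 7.94 and 7.23 normalised counts over the 9 knockdown libraries, under the minimum of 10, and were not tested there. In bulk RNA, a change in the share of cells that use a gene and a change in the RNA of each cell cannot be told apart.

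EGR2, an EGR factor best known for its role in myelinating Schwann cells, hindbrain patterning and lymphocyte anergy, had the largest change of the tested members in either knockdown. It had 175.2, 155.6 and 175.2 normalised counts in EloB KD, 300.8, 304.4 and 331.6 in EloC KD, and 103.6, 101.9 and 99.8 in Control KD. The 3 groups did not overlap, and the Control KD libraries lay within 4 counts of each other. A rise over Control KD without overlap was seen in 18.8% of all genes tested in EloB KD and 26.5% in EloC KD. In EloC KD the rise was 1.61 ± 0.14 on the log2 scale (log2 of the normalised count plus 1, ± standard error), 3.05-fold, with an adjusted p of 2.70e-05. In EloB KD it was 0.72 ± 0.14, 1.65-fold (adjusted p 0.00504). EGR2 was called in every alternative of both comparisons, with adjusted p values up to 0.0231 in EloB KD.

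EGR1, the prototype of the family, was nearly silent. It had 10, 9 and 8 reads in the EloB KD libraries, 7, 14 and 6 in EloC KD, and 8, 6 and 4 in Control KD. As normalised counts these were 9.32, 8.64 and 7.58 in EloB KD, 6.93, 15.01 and 6.32 in EloC KD, and 7.54, 5.27 and 4.87 in Control KD. The EloB KD libraries lay just above those of Control KD, the lowest at 7.58 and the highest Control KD library at 7.54. These 2 libraries had 8 reads each, so the normalisation alone set them apart. Of the genes tested, which leave out EGR1, 18.8% were separated in that direction. EloC KD overlapped Control KD, and EloC KD replicate 2 was the highest of the 9 libraries. The log2 fold change without a minimum was 0.48 ± 0.37 in EloB KD (adjusted p 0.443) and 0.52 ± 0.37 in EloC KD (adjusted p 0.324), and a difference was not detectable at this depth. EGR3 had 12.1, 4.80 and 6.63 normalised counts in EloB KD, 10.9, 16.1 and 18.9 in EloC KD, and 6.59, 14.9 and 15.8 in Control KD. The groups overlapped, and neither log2 fold change was called: -0.60 ± 0.44 in EloB KD (adjusted p 0.366) and 0.33 ± 0.44 in EloC KD (adjusted p 0.573). With a 95% interval of -1.58 to 0.37 for EloB KD and -0.64 to 1.31 for EloC KD, changes of 1 log2 unit could not be told from none in EGR3.

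IER2, a nuclear protein of little known biochemistry that is induced with the EGR genes, was higher in EloC KD. Its normalised counts were 6758, 5490 and 6314 in EloB KD, 7688, 9112 and 9842 in EloC KD, and 5256, 5690 and 6445 in Control KD. Every EloC KD library lay above every library of the other knockdown groups. Against Control KD, 26.5% of all genes tested were separated in that direction. IER2 was 1.53-fold higher in EloC KD (log2 0.61 ± 0.12, adjusted p 0.00228), and it was called in every alternative. For EloB KD the log2 fold change was 0.09 ± 0.12 (adjusted p 0.620, 95% interval -0.17 to 0.36).

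IER5 was the member called in the same direction and by about the same amount in both knockdowns, which share their control libraries. It had 1741, 1774 and 1792 normalised counts in EloB KD, 1451, 2060 and 1812 in EloC KD, and 940.2, 1333 and 1282 in Control KD. The EloB KD libraries were tight, while Control KD replicate 1 lay below its 2 partners, and neither knockdown overlapped Control KD. Such a separation upward was seen in 18.8% of all genes tested in EloB KD and 26.5% in EloC KD. The log2 fold change was 0.59 ± 0.16 in EloB KD (1.51-fold, adjusted p 0.0220) and 0.58 ± 0.16 in EloC KD (1.499-fold, adjusted p 0.0117). In EloB KD the call was lost without Control KD replicate 1 (log2 0.44, adjusted p 0.0630) or without EloB KD replicate 1, 2 or 3 (adjusted p 0.0537, 0.0567 and 0.0627), and in EloC KD without EloC KD replicate 2 (0.0504). IER3, a regulator of survival, had 1.86, 8.64 and 3.79 normalised counts in EloB KD, 3.96, 8.58 and 23.2 in EloC KD, and 4.71, 7.90 and 2.43 in Control KD. All groups of IER3 overlapped, and EloC KD replicate 3 alone was above 10.

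Of the KLF genes, KLF4 and KLF6 rose in EloC KD and KLF10 fell. KLF4 had 3203, 2069 and 2599 normalised counts in EloB KD, 4945, 4423 and 4627 in EloC KD, and 3800, 3215 and 3271 in Control KD. The EloC KD libraries were all above and the EloB KD libraries all below those of Control KD, as for 26.5% and 19.6% of all genes tested. For EloB KD the gap was narrow, 3203 against 3215. KLF4 was 1.36-fold higher in EloC KD (log2 0.45 ± 0.14, adjusted p 0.0277). This call was lost without Control KD replicate 2 (0.0864) or 3 (0.0732) or without EloC KD replicate 1 (0.0822) or 3 (0.0605). In EloB KD the log2 fold change of KLF4 was -0.40 ± 0.14 and was not called (adjusted p 0.0707), but passed with the replicate number as a block (0.00669) and without EloB KD replicate 1 (log2 -0.56, adjusted p 0.0162).

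KLF6 had 4446, 4777 and 4984 normalised counts in EloB KD, 7034, 6881 and 6971 in EloC KD, and 5607, 5005 and 5008 in Control KD. The 3 EloC KD libraries lay close together and above all others, where 26.5% of all genes tested were separated upward from Control KD. KLF6 rose by 0.42 ± 0.08 in EloC KD, 1.34-fold (adjusted p 0.00206), in every alternative, while its log2 fold change in EloB KD was -0.14 ± 0.08 (adjusted p 0.266). The EloB KD libraries of KLF6 lay below those of Control KD by a narrow gap, 4984 against 5005. Such a separation was seen in 19.6% of all genes tested. KLF10 had 6174, 5867 and 7566 normalised counts in EloB KD, 5901, 5230 and 6425 in EloC KD, and 7421, 7043 and 7587 in Control KD. It was the only called member that was lower in EloC KD, where no library reached the lowest of Control KD. Of all genes tested, 27.2% were separated in that way. The log2 fold change of KLF10 was -0.33 ± 0.11 in EloC KD, 1.26-fold lower (adjusted p 0.0334), and -0.18 ± 0.11 in EloB KD (adjusted p 0.292). The EloC KD call of KLF10 was lost without any of the 3 Control KD libraries or without EloC KD replicate 1 or 2 (adjusted p 0.0553 to 0.124).

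SRF, the transcription factor upstream of many of these genes, had 2543, 2735 and 2662 normalised counts in EloB KD, 2172, 2969 and 2624 in EloC KD, and 2231, 3014 and 2795 in Control KD. The groups lay on top of each other, and replicate 1 was the lowest library of each. The log2 fold change was -0.01 ± 0.14 in EloB KD (adjusted p 0.978, 95% interval -0.31 to 0.29) and -0.05 ± 0.14 in EloC KD (adjusted p 0.792, -0.35 to 0.25). The sign for EloB KD turned under TMM and quantile scaling, which gave 0.02 and 0.04.

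The 2 knockdowns also differed from each other. EGR2, IER2, KLF4 and KLF6 were all lower in EloB KD than in EloC KD, 4 of 8 tested members, where 46.1% of all genes were called and 23.8% were lower. The share of members called in either direction was near that of all genes. The log2 difference was -0.89 ± 0.14 for EGR2 (adjusted p 0.000518), -0.85 ± 0.14 for KLF4 (0.000808), -0.56 ± 0.08 for KLF6 (0.000336) and -0.52 ± 0.12 for IER2 (0.00507). All 4 were called in every alternative, and the groups of all 4 did not overlap, as for 29.2% of all genes in that direction. The median of the 8 was -0.54, against -0.01 over all genes. IER5 (0.01 ± 0.16, 95% interval -0.33 to 0.35), SRF (0.04 ± 0.14, -0.26 to 0.34), KLF10 (0.16 ± 0.11, -0.09 to 0.40) and EGR3 (-0.93 ± 0.44, -1.91 to 0.04) were not called. EGR3 passed under quantile scaling alone (adjusted p 0.0335).

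**Figure D3:**
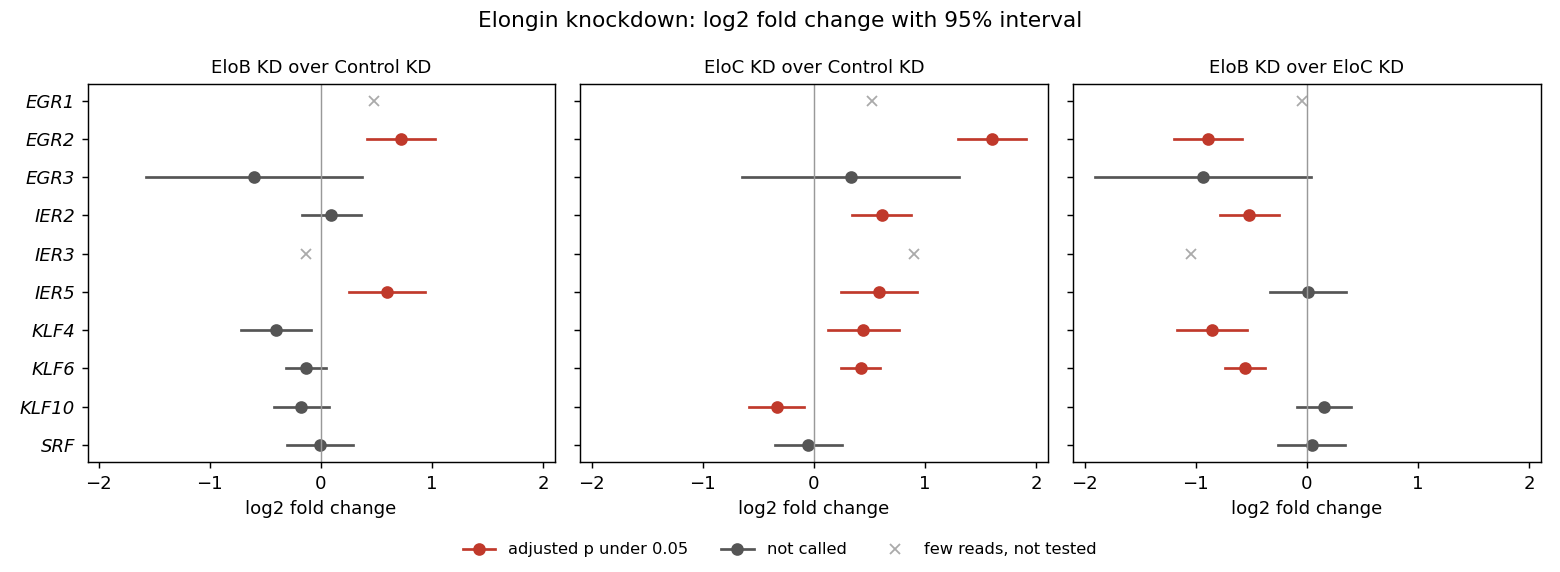
Log2 fold changes of the 10 genes in the knockdown experiment, with 95% intervals from the limma fit (3 libraries a group). Red points have an adjusted p under 0.05, dark grey points do not, and light crosses are genes with a mean under 10 that were not tested and have no interval. EGR2 is at 0.72 in EloB KD and 1.61 in EloC KD, and KLF4 lies left of 0 in EloB KD (-0.40) and right of 0 in EloC KD (0.45).

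The authors' deposited table called the same 2 members for EloB KD, with an adjusted p of 0.000101 for EGR2 and 0.00440 for IER5, and put KLF4 at 0.0624. For EloC KD the authors' deposited table called the same 6, with adjusted p values of 3.99e-23 for EGR2, 1.15e-05 for KLF6 and 3.66e-05 for IER2 at the low end and 0.0270 for KLF10 at the high end.

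Partners and relatives of the members were counted in lists chosen with earlier results of these data known. Their counts beside those of all genes are therefore a description. Among 12 tested family members and partners, NAB2, IER5L, KLF16, KLF7 and KLF11 rose in EloC KD, 5 of 12 where 42.5% of all genes were called, and the list median was 0.07. Under the replicate block 6 were higher and 2 lower, where 57% of all genes were called. Both shares, taken in either direction, were near those of all genes. In limma 0 of the 12 fell, where 21.3% of all genes rose and 21.2% fell. NAB2, a corepressor of EGR1 and EGR2 that is itself an EGR target, had 2269 ± 128 normalised counts in EloC KD and 1365 ± 148 in Control KD (log2 0.74 ± 0.11, adjusted p 0.000583). IER5L, the paralog of IER5, had 296.2 ± 67.2 in EloC KD and 116.5 ± 21.1 in Control KD (1.33 ± 0.22, adjusted p 0.000938). In EloB KD the KLF factor gene KLF7 (-0.74 ± 0.20, adjusted p 0.0246) and the corepressor gene NAB1 (-0.48 ± 0.13, adjusted p 0.0295) fell, 2 of 12 where 20.5% of all genes were called. Under the block 1 was higher and 5 lower, where 36.3% of all genes were called, and the list median was -0.17. KLF7 was thus called in opposite directions, and between the knockdowns it was lower in EloB KD than in EloC KD by 1.51 ± 0.20 on the log2 scale (adjusted p 0.000173).

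Among 16 cofactors of SRF and kinases of the ERK module, 3 rose and 2 fell in EloC KD, 5 of 16 where 42.5% of all genes were called. The coactivator gene MRTFA had 2057 ± 350 normalised counts in EloC KD and 1027 ± 123 in Control KD (log2 0.996 ± 0.144, adjusted p 0.000396), while its relative MRTFB had 1383 ± 151 in EloC KD and 1906 ± 99.3 in Control KD (-0.47 ± 0.10, adjusted p 0.00402). Of the ternary complex factors, ELK1 rose (0.43 ± 0.12, adjusted p 0.0125) and ELK4 fell (-0.45 ± 0.10, adjusted p 0.00510). In EloB KD ELK4 fell (-0.41 ± 0.10, adjusted p 0.0194) and was the 1 gene of the 16 that limma called, where 20.5% of all genes were called. edgeR and DESeq2 each called 3 of the 16, where they called 2847 of 13764 and 25.1% of all genes. The block called 2 higher and 3 lower, where 36.3% of all genes were called.

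Of 30 other immediate early genes, 19 rose and 2 fell in EloC KD, where 21.3% of all genes rose and 21.2% fell, with a median log2 fold change of 0.72. The stress-induced factor gene ATF3 had 2038 ± 508 normalised counts in EloC KD and 390.7 ± 48.4 in Control KD (2.36 ± 0.17, adjusted p 1.01e-05), the kinase gene SGK1 rose by 2.26 ± 0.18 and the small GTPase gene RHOB by 1.97 ± 0.14. In EloB KD 3 of the 30 rose and 4 fell, where 20.5% of all genes were called, and the median was 0.11. Under the block 6 rose and 8 fell, where 36.3% of all genes were called. FOS, which encodes an AP-1 subunit and is the classical SRF target, had 235.5 ± 43.1 in EloB KD and 65.4 ± 8.98 in Control KD (1.82 ± 0.19, adjusted p 0.000231), and JUN rose by 0.59 ± 0.13 (adjusted p 0.00927). PHLDA1 (-0.58 ± 0.12), NFKBIZ (-0.95 ± 0.22), FOSL1 (-0.33 ± 0.08) and FOSL2 (-0.36 ± 0.09) fell. Between the knockdowns 4 of the 30 were higher and 18 lower in EloB KD than in EloC KD, where 22.3% of all genes were higher and 23.8% lower.

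Genes of ERK feedback and the delayed early response moved in both directions, with 5 of 18 higher and 7 lower in EloC KD and 3 higher and 5 lower in EloB KD, where 42.5% and 20.5% of all genes were called. The phosphatase gene DUSP5 rose by 1.79 ± 0.11 in EloC KD (adjusted p 3.76e-06) and the ERK inhibitor gene SPRY4 fell by 0.94 (adjusted p 7.28e-05). SPRY4 rose in EloB KD, by 0.42 ± 0.10 (adjusted p 0.0149). The EGF receptor ligand gene HBEGF rose in both, by 1.49 ± 0.16 in EloB KD and 1.27 ± 0.16 in EloC KD. Of 24 cytoskeletal targets of SRF and the MRTFs, 7 rose and 1 fell in EloC KD (42.5% of all genes called), led by the actin-binding protein gene LIMA1 (1.47 ± 0.16) and by the fall of the tropomyosin gene TPM4 (-1.34 ± 0.12). In EloB KD 1 of the 24 rose, the smooth muscle actin gene ACTA2 (1.08 ± 0.23, adjusted p 0.00844), and 6 fell (20.5% of all genes called; 4 rose and 8 fell under the block, with 36.3% of all genes called), among them TUFT1 (-0.75 ± 0.13) and the calponin gene CNN2 (-0.70 ± 0.13).

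**Figure D4:**
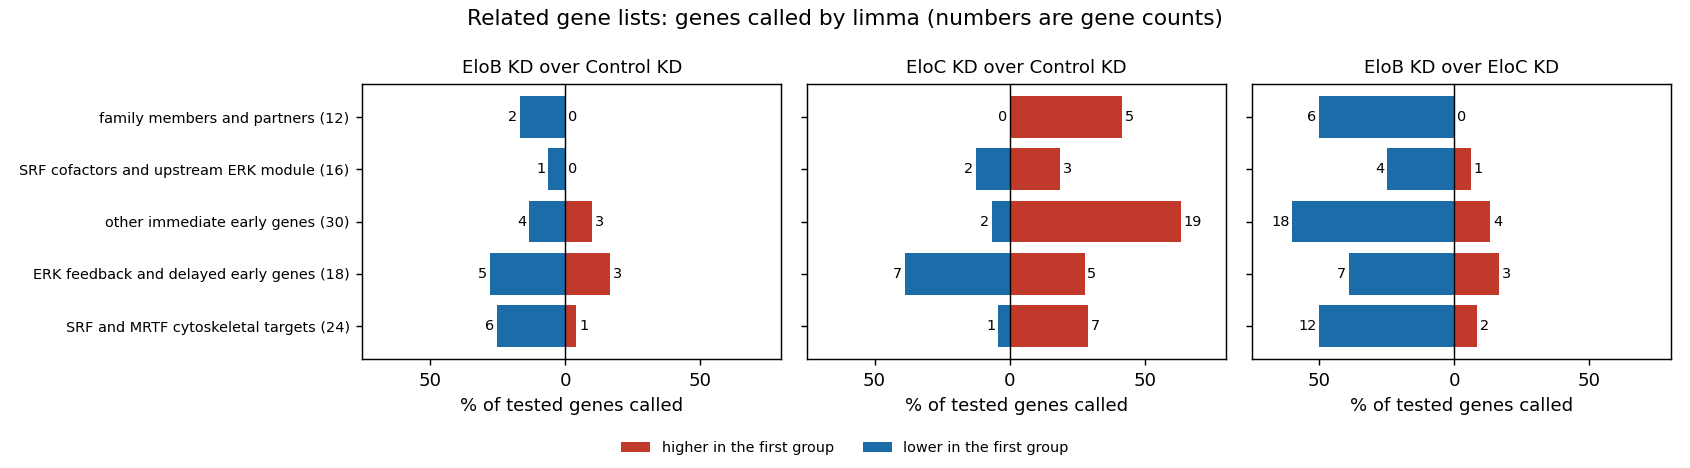
Share of tested genes called by limma in 5 lists of related genes, in percent, for the 3 knockdown comparisons. Red bars to the right are genes higher in the group named before "over", blue bars to the left are genes lower in it, and the digits are gene counts. For the 30 other immediate early genes, 19 were higher in EloC KD and 3 in EloB KD.

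In the main fit, which leaves out the replicate number, none of the 8 tested members was called with either peptide against the Scrambled peptide. With the replicate number as a block, 3 were called with the WT and 3 with the Mutant peptide, as given below. EGR1 and EGR3 had too few reads and are given as values only. For the WT peptide 1.43% of 13105 genes were called by limma, and of the 8 members 1 had an unadjusted p under 0.05, where 13.4% of all genes had one. edgeR called 0 of the 8, and DESeq2, which gave an adjusted p for 6 of them, called KLF6 (5.65% of the genes to which it gave one). For the Mutant peptide limma called 0% of all genes (0 of 13105, with 1142 at an unadjusted p under 0.05, 0 called by edgeR and 184 by DESeq2). All 8 log2 fold changes of the members were negative for the Mutant peptide, with a median of -0.22, against -0.001 over all genes, and 3 had an unadjusted p under 0.05 (EGR2, KLF4 and KLF6), where 8.71% of all genes had one. Here edgeR called 0 of the 8 and DESeq2 called KLF6 (1.52% of the genes with an adjusted p). For the WT peptide 7 of the 8 were negative, with a median of -0.06. Both comparisons use the same 3 Scrambled libraries. With the replicate number as a block, IER5, KLF4 and KLF6 were lower with the WT peptide, where 16.2% of all genes were called, and KLF4, KLF6 and KLF10 with the Mutant peptide, where 8.3% were.

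KLF6 had the smallest adjusted p of the members with either peptide. It had 5401, 5531 and 5149 normalised counts with the WT peptide, 5224, 5436 and 5002 with the Mutant peptide, and 6744, 6422 and 5905 with the Scrambled peptide. All 6 libraries of the WT and Mutant peptides lay below all 3 Scrambled libraries. Such a separation was seen in 9.42% of all genes tested with the WT and 6.65% with the Mutant peptide. The log2 fold change was -0.24 ± 0.06 for the WT peptide (adjusted p 0.0762) and -0.28 ± 0.06 for the Mutant peptide (adjusted p 0.127). With the block the adjusted p was 0.000187 for the WT peptide and 0.000195 for the Mutant peptide, and DESeq2 gave 0.00545 for the WT and 0.00228 for the Mutant. The WT call was also made without Scrambled replicate 3 (log2 -0.30, adjusted p 0.0432), and the authors' deposited table gave 0.00780. WT and Mutant themselves differed by 0.04 ± 0.06 (adjusted p 0.985, 95% interval -0.09 to 0.16).

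EGR1 passed the minimum of 10 (mean 10.4) only through the Scrambled libraries, so its differences are given with no test. It had 7, 10 and 9 reads with the WT peptide, 2, 8 and 6 with the Mutant peptide, and 20, 15 and 17 with the Scrambled peptide. As normalised counts these were 6.84, 10.7 and 9.17 with the WT peptide, 2.04, 7.70 and 5.81 with the Mutant peptide, and 20.01, 14.8 and 16.7 with the Scrambled peptide. All 6 libraries of the WT and Mutant peptides lay below the Scrambled libraries, where 9.42% (WT) and 6.65% (Mutant) of all genes tested were separated in that direction. The log2 fold change was -0.89 for the WT peptide and -1.68 for the Mutant peptide.

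EGR2 had 69.4, 69.2 and 54.0 normalised counts with the WT peptide, 48.9, 47.1 and 48.4 with the Mutant peptide, and 60.0, 79.8 and 64.0 with the Scrambled peptide. The Mutant libraries were tight and lay below both other groups, where 6.65% of all genes tested were separated downward from the Scrambled peptide. Its log2 fold change was -0.08 ± 0.17 for the WT peptide (adjusted p 0.918) and -0.48 ± 0.17 for the Mutant peptide (adjusted p 0.438). EGR3 averaged 8.06 normalised counts over the 9 libraries and was not tested. It had 12.7, 5.33 and 6.11 with the WT peptide, 10.2, 6.73 and 10.6 with the Mutant peptide, and 9.003, 4.92 and 6.89 with the Scrambled peptide, and all 3 groups overlapped.

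The IER genes overlapped between the peptide groups. IER2 had 6751, 7050 and 6678 normalised counts with the WT peptide, 6190, 7022 and 5503 with the Mutant peptide, and 6513, 7214 and 7161 with the Scrambled peptide. IER3 had 42.0, 27.7 and 36.7 with the WT peptide, 31.6, 49.1 and 6.77 with the Mutant peptide, and 39.0, 27.6 and 41.4 with the Scrambled peptide, so that Mutant replicate 3 alone was below 20. IER5 had 1274, 1033 and 1234 with the WT peptide, 1395, 1130 and 1472 with the Mutant peptide, and 1431, 1203 and 1678 with the Scrambled peptide. Replicate 2 was the lowest library of IER5 in all 3 groups, as it was for SRF, and the highest of IER2 and KLF4 in all 3. For IER5 the log2 fold change with the WT peptide was -0.28 ± 0.14 (adjusted p 0.435), and 0.00219 with the block.

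KLF4 had 2717, 2974 and 2619 normalised counts with the WT peptide, 2596, 2966 and 2190 with the Mutant peptide, and 3244, 3423 and 2831 with the Scrambled peptide. The groups overlapped, and the log2 fold change was -0.19 ± 0.11 for the WT peptide (adjusted p 0.503, with the block 0.00969) and -0.30 ± 0.11 for the Mutant peptide (adjusted p 0.452, with the block 0.00107). KLF10 had 5036, 5762 and 5343 with the WT peptide, 4907, 5291 and 4876 with the Mutant peptide, and 5482, 5745 and 5250 with the Scrambled peptide. Its log2 fold change was -0.03 ± 0.06 for the WT peptide (adjusted p 0.905) and -0.13 ± 0.06 for the Mutant peptide (adjusted p 0.593, with the block 0.0305). SRF had 2600, 2250 and 2557 with the WT peptide, 2360, 2067 and 2371 with the Mutant peptide, and 2456, 2137 and 2387 with the Scrambled peptide. The SRF groups overlapped, with log2 fold changes of 0.09 ± 0.08 for the WT peptide (95% interval -0.09 to 0.26) and -0.04 ± 0.08 for the Mutant peptide (-0.22 to 0.14). Within each of the 3 replicate numbers the WT library was the highest of SRF and the Mutant library the lowest. With the block SRF was not called, at an adjusted p of 0.110 for the WT peptide, 0.563 for the Mutant peptide and 0.0595 for WT over Mutant.

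**Figure D5:**
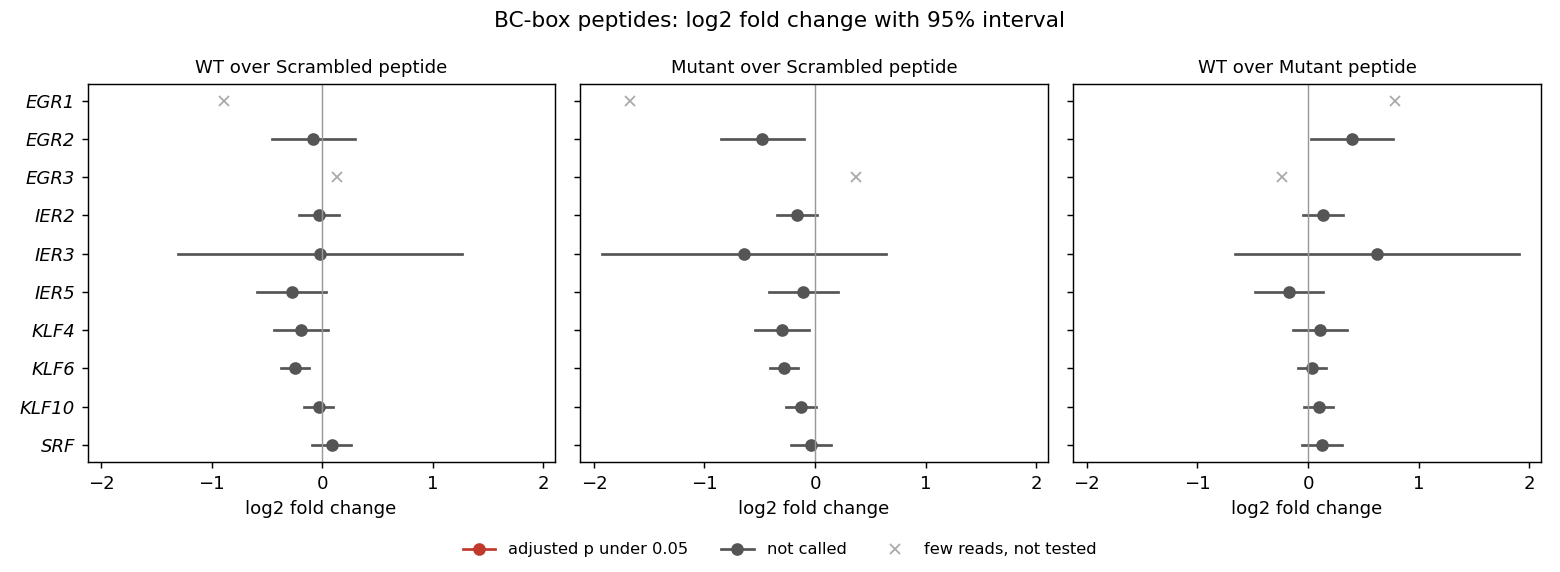
Log2 fold changes of the 10 genes in the peptide experiment, with 95% intervals from the limma fit (3 libraries a group). Dark grey points were not called, and the light crosses are EGR1 and EGR3, which had few reads, were not tested and have no interval. Most points lie left of 0 for the Mutant over the Scrambled peptide, with EGR2 at -0.48 and KLF6 at -0.28.

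WT and Mutant peptides gave 0 calls among the 8 tested members at an adjusted p under 0.05 in limma, where 0% of all genes were called (0 of 13105, with 898 at an unadjusted p under 0.05, 0 called by edgeR and 63 by DESeq2). EGR2 was the 1 member with an unadjusted p under 0.05, where 6.85% of all genes had one. edgeR called 0 of the 8, and DESeq2 called 0 of the 6 to which it gave an adjusted p, EGR2 and IER3 having none. The WT libraries of EGR2 (54.0 to 69.4) lay above the Mutant libraries (47.1 to 48.9), as for 6.4% of all genes tested. The log2 difference was 0.40 ± 0.17 (adjusted p 0.703, 95% interval 0.03 to 0.77). Over the 8 the median difference was 0.12, against 0.003 over all genes.

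The related lists were counted for the peptides against 1.43% of all genes called with the WT and 0% with the Mutant peptide. With the WT peptide the ERK feedback genes SPRY1 (log2 -0.29 ± 0.05, adjusted p 0.0337) and DUSP5 (-0.26 ± 0.05, adjusted p 0.0413) fell and the EGF receptor ligand gene AREG rose (0.40 ± 0.08, adjusted p 0.0464), 3 of 18. With the block 1 of the 18 was higher and 9 lower, where 16.2% of all genes were called. Of the cytoskeletal targets LIMA1 fell (-0.23 ± 0.05, adjusted p 0.0430), 1 of 23. Of the 30 other immediate early genes limma called 0 with the WT and 0 with the Mutant peptide (5 and 12 at an unadjusted p under 0.05, 0 and 0 in edgeR, 1 and 2 in DESeq2). With the block 12 of the 30 were lower with the WT peptide and 12 with the Mutant peptide, where 8.23% and 4.59% of all genes were lower.

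Genes most like each member were found by Pearson's r over the 18 libraries, after each experiment was centred on its own mean, among 13074 genes that passed the minimum in both. These values describe libraries that share groups and culture. The closest to EGR2 were ANXA1 (r = 0.960), DNAJC1 (0.955) and AKAP8L (0.942), and the closest to IER2 were NSMF (0.960), ZNF628 (0.956) and CLCN7 (0.954). For IER5 they were ZSCAN25 (0.913), MED15 (0.891) and ITGBL1 (0.889), and for SRF ZC3H7B (0.921) and SDF2L1 (0.876). KLF4 was closest to CPT1C (0.925), CAPRIN2 (0.924) and BCL6 (0.924), KLF6 to MATN2 and RND3 (each 0.930), and KLF10 to WTAP (0.931), RTKN (0.896) and TRIM65 (0.893). Among the members themselves KLF4 and KLF6 had the highest r (0.842), followed by EGR2 and IER2 (0.839), and IER5 and KLF10 the lowest (-0.607). SRF had an r between -0.358 (KLF4) and 0.444 (IER5) with the other members.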

How the data were processed

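Column-purified, DNase-treated RNA went into stranded libraries of mRNA, per the labels' protocols. Reads were aligned to hg38 and counted with featureCounts, and DESeq2 was used, per the submitters' processing notes, where versions are missing. For each experiment the authors deposited a table whose signal is a DESeq2-normalised read count, and tables of their comparisons, of which only the adjusted p-value was used, since it is the authors' own test. Whole reads were recovered from each library's smallest step, within a tolerance of 0.05 reads for all values.

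For the main test limma 3.58.1 (R 4.3.3) was fitted with a trend to log2(normalised count + 1), where a gene averaged 10 or more across all 9 libraries of its experiment (13764 in the knockdown and 13105 in the peptide experiment). EGR1 reached that mean in the peptide experiment through 1 group alone, and its differences there are given with no test and no count. The 3 groups shared 1 spread, tests were 2-sided, and p-values were adjusted (Benjamini-Hochberg) over all genes tested, at a threshold of 0.05. With 3 against 3 libraries the smallest exact permutation p is 0.1, and tests of single genes therefore use this fit. Fold changes on this scale understate the change of low genes. Alternatives were edgeR 4.0.16 and DESeq2 1.42.0 on the recovered reads, TMM and quantile scaling, pseudocounts of 0.5 and 5, no filter or a mean of at least 50, only the 6 libraries compared, a replicate block and each library left out. The fit was tested on simulated data.

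To check whether replicate numbers pair the libraries, deviations from group means were correlated across genes. In the knockdown experiment r was 0.236 to 0.566 for equal numbers and -0.439 to 0.0703 for unequal ones. In the peptide experiment it was 0.254 to 0.715 for equal and -0.546 to 0.336 for unequal numbers. Each same-number pair thus passed 0.1. In the knockdown experiment no unequal pair did, so libraries of equal number deviated alike there. In the peptide experiment the highest unequal pair (0.336) was above the lowest equal pair (0.254), so this check cannot settle the pairing there. The main fit leaves the numbers out, so its errors in the knockdown experiment include this shared spread. The replicate block uses the numbers.

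Lengths are exon bases of GENCODE (GRCh38), and promoters are from RefSeq. All members were named, with up to 6 genes of smallest adjusted p per list and the 3 most similar genes per member, of which some are not reported here. The members and lists were chosen with earlier results of these data known.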

Additional observations from a re-analysis of the deposited data

How the results depend on the processing

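Of 782 values of single members under alternatives, 730 kept their direction and side of the threshold, 12 passed it, 14 lost it and 26 changed sign. The same 6 members in EloC KD and the same 2 in EloB KD were called under edgeR, DESeq2, both scalings, both pseudocounts, both filters and the fit of 6 libraries. Leaving out a library gave 1 to 2 members for EloB KD, 4 to 5 for EloC KD and 0 to 1 for the WT peptide. For the WT peptide DESeq2 called 1 and the replicate block 3 members, and for the Mutant peptide DESeq2 called 1 and the block 3. The block, which pairs libraries by replicate number, also added KLF4 in EloB KD, and apart from these it changed no other call of a member. Over all genes it called 4996 for EloB KD, 2122 for the WT peptide, 1088 for the Mutant peptide and 536 between the peptides, where limma without it called 2822, 188, 0 and 0. DESeq2 called 582 for the WT peptide. The 188 genes of the WT peptide became 66 without WT peptide replicate 3, 67 without WT peptide replicate 1, 95 without Scrambled peptide replicate 1 and 98 without Scrambled peptide replicate 2. Without replicate 2 of all peptide groups, an alternative chosen after seeing the data, 0 members and 258, 37 and 21 genes were called for the WT, the Mutant and the WT over the Mutant peptide.

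Sign changes were in log2 values near 0 or in genes with few reads, and the cause was not tested. SRF in EloB KD gave 0.00553 in edgeR, 0.0176 under TMM and 0.0432 under quantile scaling, and IER3 with the WT peptide 0.0474 under quantile scaling. Leaving out a library gave -0.134 to 0.0832 for SRF in EloB KD, -0.177 to 0.0702 for SRF in EloC KD, -0.0774 to 0.148 for SRF and -0.128 to 0.125 for IER5 between the knockdowns, and -0.0387 to 0.542 for EGR3 in EloC KD. For the WT peptide it gave -0.162 to 0.0404 for EGR2, -0.195 to 0.143 for IER3 and -0.0814 to 0.0157 for KLF10. For the Mutant peptide it gave -1.20 to 0.148 for IER3, -0.227 to 0.0125 for IER5 and -0.0983 to 0.0266 for SRF. For the WT over the Mutant peptide it gave -0.168 to 1.18 for IER3 and -0.00489 to 0.214 for KLF4. Depth limits EGR1, EGR3 and, in the knockdown experiment, IER3, which had too few reads to show any but large changes.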
